A study of Arabidopsis thaliana with 12 samples.

Results

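The genes of the Arabidopsis chloroplast genome were followed in poly(A) RNA libraries of young leaves. The deposited tables list 133 rows on this chromosome among 37242 genes. A row was kept where at least 3 of the 12 libraries held at least 10 exon reads. This left 55 genes, 49 of them protein-coding and 6 ribosomal RNA genes. A gene with identical copies has a row per copy, and each row is counted as a gene here. The other 78 rows stayed below that limit, and 38 of these had no read in any library. Plants of the reference accession Col-0 and of npf8.4-1, a mutant of the transporter gene NPF8.4, were kept in hydroponic culture with 5 mM KNO3 until 15 days old. Leaves were taken at that point (day 0) or 2 days after a move to medium without nitrogen (day 2). Each of the 4 groups had 3 biological replicates, each pooled from 15 plants, so the spread below is that between pools. No group of the day 2 age stayed on nitrate, so depletion and age cannot be told apart.

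Chloroplast genes are transcribed by more than 1 enzyme. The plastid-encoded polymerase has a bacterial-type core made from rpoA, rpoB, rpoC1 and rpoC2, takes sigma factors from the nucleus and transcribes mainly photosynthesis genes. The nuclear-encoded phage-type polymerase transcribes housekeeping genes, among them rpoB and its downstream neighbours. Many transcripts are polycistronic and are cut and trimmed later. A poly(A) tail on a plastid RNA usually marks it for decay, unlike the tail of a nuclear mRNA, and a library made by poly(A) selection therefore holds few plastid reads.

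NPF8.4 had 174 to 568 reads in the Col-0 libraries and 10 to 47 in those of npf8.4-1. Leaf markers were high in all 12 libraries, with RBCS1A at 10900 to 20800 counts per 1000000 reads (CPM) and LHCB1.1 at 5740 to 11200 CPM. The root markers were low or absent, with RHS at 0, PRP3 at up to 0.626 CPM and PYK10 at up to 3.44 CPM. Library totals ran from 28761674 to 34282716 exon reads.

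Chloroplast rows took between 0.0556% and 0.171% of all reads. In Col-0 the share was 0.0818%, 0.0815% and 0.0588% in the 3 day 0 libraries and 0.0756%, 0.0862% and 0.171% at day 2. In npf8.4-1 it was 0.0635%, 0.112% and 0.0556% at day 0 and 0.0746%, 0.0915% and 0.0929% at day 2. The groups overlapped in both genotypes, and the highest library was the third replicate of Col-0 at day 2, with an exact 95% binomial interval of 0.169% to 0.172%. Such intervals cover counting error only, since PCR copies of a molecule were not told apart. Ribosomal RNA made up 72.3% to 89.1% of the chloroplast reads, and transfer RNA gave at most 5 reads in a library.

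The protein-coding rows, taken alone, spread less between libraries than the rRNA rows. They took 163, 152 and 138 reads per 1000000 of the library in Col-0 at day 0 and 168, 203 and 185 at day 2. In npf8.4-1 they took 176, 167 and 146 reads per 1000000 at day 0 and 182, 225 and 202 at day 2. On these unscaled library totals every day 2 library lay above every day 0 library of its genotype. The mean over 3 libraries went from 151 ± 12.6 (SD) to 185 ± 17.8 in Col-0 and from 163 ± 15.4 to 203 ± 21.4 in npf8.4-1, and no test was run on these sums. With TMM-scaled totals, which the test on each gene also uses, the days overlapped in both genotypes. The sums were then 172, 155 and 137 at day 0 and 161, 192 and 195 at day 2 in Col-0, and 176, 182 and 148 at day 0 and 179, 214 and 195 at day 2 in npf8.4-1. In such bulk samples, fewer cells of a type and less RNA per cell cannot be told apart, nor can the amount of a plastid transcript and its capture by poly(A) selection. The plot of rRNA and protein-coding reads shows both sums by library.

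**Figure D1:**
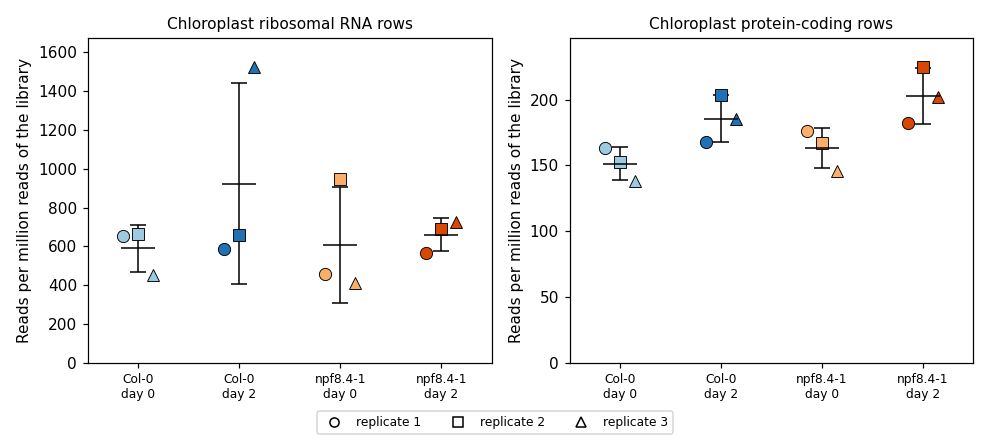
Chloroplast reads per 1000000 reads of each library, for ribosomal RNA rows (left) and protein-coding rows (right). Points are the 3 libraries of a group and the lines give the mean ± SD; rRNA spreads from 409 to 1523 reads per 1000000 with overlapping groups, while protein-coding reads lie between 138 and 225. Totals are unscaled. On them day 2 lies above day 0 within each genotype for the protein-coding rows, and with TMM-scaled totals the days overlap in both genotypes.

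Part of the chloroplast genome is an inverted repeat, in which genes exist as 2 identical copies on opposite arms. The kept genes include 16 rows in 8 such pairs (rpl2, rpl23, ndhB, rps7, rps12, rrn16S, rrn23S and rrn5S), named here A and B by position. The sequences of each pair were identical over their whole length in the RefSeq TAIR10.1 chloroplast genome. The start of the 16S rRNA gene is shown from both arms, because a read from it matches each arm equally. The first line is chrC:101012-101071 on the plus strand and the second is chrC:137578-137637 on the minus strand, in TAIR10.1.
rrn16S-A: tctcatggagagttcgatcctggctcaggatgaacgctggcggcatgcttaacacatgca
rrn16S-B: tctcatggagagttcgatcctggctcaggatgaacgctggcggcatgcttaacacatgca
In 11 libraries the reads of rrn16S were split evenly, with 49.0% to 51.0% in copy A, and those of rrn23S likewise with 49.7% to 51.3%. The first replicate of Col-0 at day 0 stood apart, with 6533 reads of rrn16S in copy A and 8 in copy B (99.9% in A). Its rrn23S reads were 12867 in copy A and 2306 in copy B (84.8% in A). The rpl2 reads of the same library were split as elsewhere, with 49.1% in copy A against 48.1% to 53.4% in the other 11. Values of a single rRNA copy therefore differ in that library from all others, and rrn16S and rrn23S are given below for both copies summed.

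**Figure D2:**
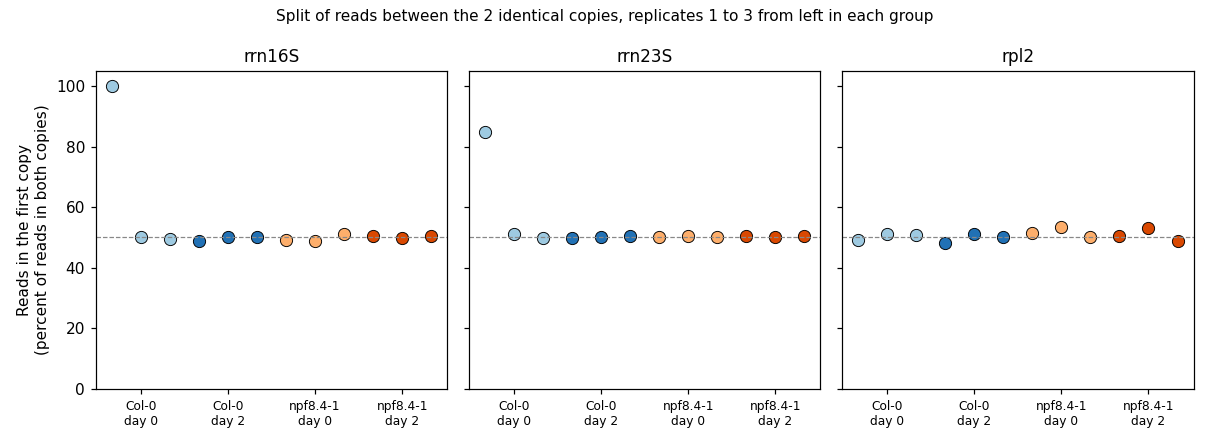
Percent of reads found in the first of 2 identical copies for rrn16S, rrn23S and rpl2, one point per library, replicates from left to right within each group. The dashed line marks an even split; only the first Col-0 day 0 library departs from it, at 99.9% for rrn16S and 84.8% for rrn23S, while its rpl2 stands at 49.1%.

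Among the protein-coding genes, psbA and rbcL are known as the most abundant transcripts of leaf chloroplasts. In these poly(A) libraries other genes led. Levels per length are given as transcripts per 1000000 (TPM), row by row. The highest row was atpB, the beta subunit of the ATP synthase, with a mean of 41.0 TPM over the 12 libraries. Its range was 29.5 to 55.3. Next came atpE (23.0 TPM, its epsilon subunit), rpl2-A and rpl2-B (20.8 and 20.3 TPM, a protein of the large ribosomal subunit) and rpl16 (15.6 TPM). The ranges of atpE, each rpl2 row and rpl16 overlapped, so the order of these rows is not fixed by these data. The reads of rpl2 are split between its identical copies, so the gene as a whole stands above either row. Its place against atpB is thus not given by these ranks. Among the rows, the Rubisco large subunit gene rbcL ranked 7 with 11.4 TPM. The psbA gene, which encodes the D1 protein of photosystem II, ranked 11 with 7.03 TPM. In these ranks rpl2 is counted once per copy. The lowest were ycf1 (0.0569 TPM), ndhD (0.194), matK (0.270), ndhB-A (0.403) and ndhB-B (0.482). Alone, atpB held 21.7% of all protein-coding chloroplast reads over the 12 libraries, and rpoB held 10.9%.

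Internal runs of A were compared with these levels, because an oligo(dT) step can also bind such runs. The longest run of each of 3 genes is shown in capitals with 12 bases on either side, from the minus strand of TAIR10.1: rpoA (chrC:78083-78120), atpB (chrC:54089-54122) and psbA (chrC:1356-1383).
rpoA: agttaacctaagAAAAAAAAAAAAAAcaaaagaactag
atpB: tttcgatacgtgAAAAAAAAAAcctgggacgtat
psbA: taactagcactgAAAAccgtctttacat
The longest run measured 14 bases in rpoA, which had a mean of 1.81 TPM, 10 in atpB and 4 in psbA. Across the 49 protein-coding genes, Spearman's rho with mean TPM was -0.11 for the longest run, 0.03 for the percent of A and -0.41 for the percent of A and T. Genes share libraries and base composition, so these are descriptions without a test. The kept protein-coding genes were longer than those left out, with a median of 990 bases (159 to 5361) against 246 (90 to 6885). The limit counts reads, and a longer gene gathers more at the same level, so this difference is partly built in. Lengths, runs of A and base percents were taken over the whole gene span, introns included.

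Genes just inside the limit, with 3 libraries at 10 reads or more, were matK, ndhC, rpl20, rpl32, ndhD and rrn5S, whose medians were 4 to 7.5 reads. Just outside it, with 2 such libraries, were cemA, ycf2 and rrn4.5S, with medians of 4.5 to 7 reads. The acetyl-CoA carboxylase subunit gene accD had 1 to 5 reads, and ndhF, at 2241 bases, had 0 to 3. All 36 transfer RNA rows and all 4 rows of assembly factors stayed below the limit.

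The effect of 2 days without nitrogen was asked in each genotype. Day 2 was compared with day 0 with edgeR's quasi-likelihood test on all 19416 genes that passed its filter on low counts, at a Benjamini-Hochberg adjusted p under 0.05. All changes given below are log2 fold changes of day 2 against day 0, and levels in CPM use TMM-scaled library totals. Of the 55 chloroplast genes 54 were tested, since rpl20 did not pass the filter. In Col-0, 8 were higher (14.8%) and 2 lower (3.7%) at day 2, where 29.3% of all tested genes were higher and 30.7% lower (60.0% in either direction). In npf8.4-1, 11 were higher (20.4%) and 4 lower (7.41%), where 31.5% and 32.4% of all tested genes were higher and lower (63.9% in either direction). The shares of chloroplast genes called were thus below the background in each direction. All protein-coding chloroplast rows together held only 4250 to 7677 reads in a library, and the part of low counts in these shares was not tested. The median log2 fold change over the 54 rows was 0.42 in Col-0 and 0.31 in npf8.4-1, beside 0.02 and 0.01 over all tested genes. Values lay above 0 for 44 and 40 of the 54 rows. These include 6 rRNA rows with copies not summed, which are split unevenly in the first replicate of Col-0 at day 0. Over the 48 protein-coding rows alone the medians were 0.38 in Col-0 and 0.44 in npf8.4-1, with 38 above 0 in each. The counts of called genes depended on single libraries. In Col-0, 4 were higher without day 0 replicate 3 and 5 without day 2 replicate 2, and 0 were lower without day 0 replicate 1 or day 2 replicate 1. In npf8.4-1, 6 were higher without day 0 replicate 3 and 7 without day 2 replicate 2. Of the rows called in both genotypes, 5 were higher (atpB, clpP, psbA, rpl2-A and rpl2-B) and 2 lower (rpoB and rpoC1). The rpl2 rows are identical copies, so they stand for the same gene. How many of all tested genes were called in both genotypes was not counted, so nothing is read from these counts.

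**Figure D3:**
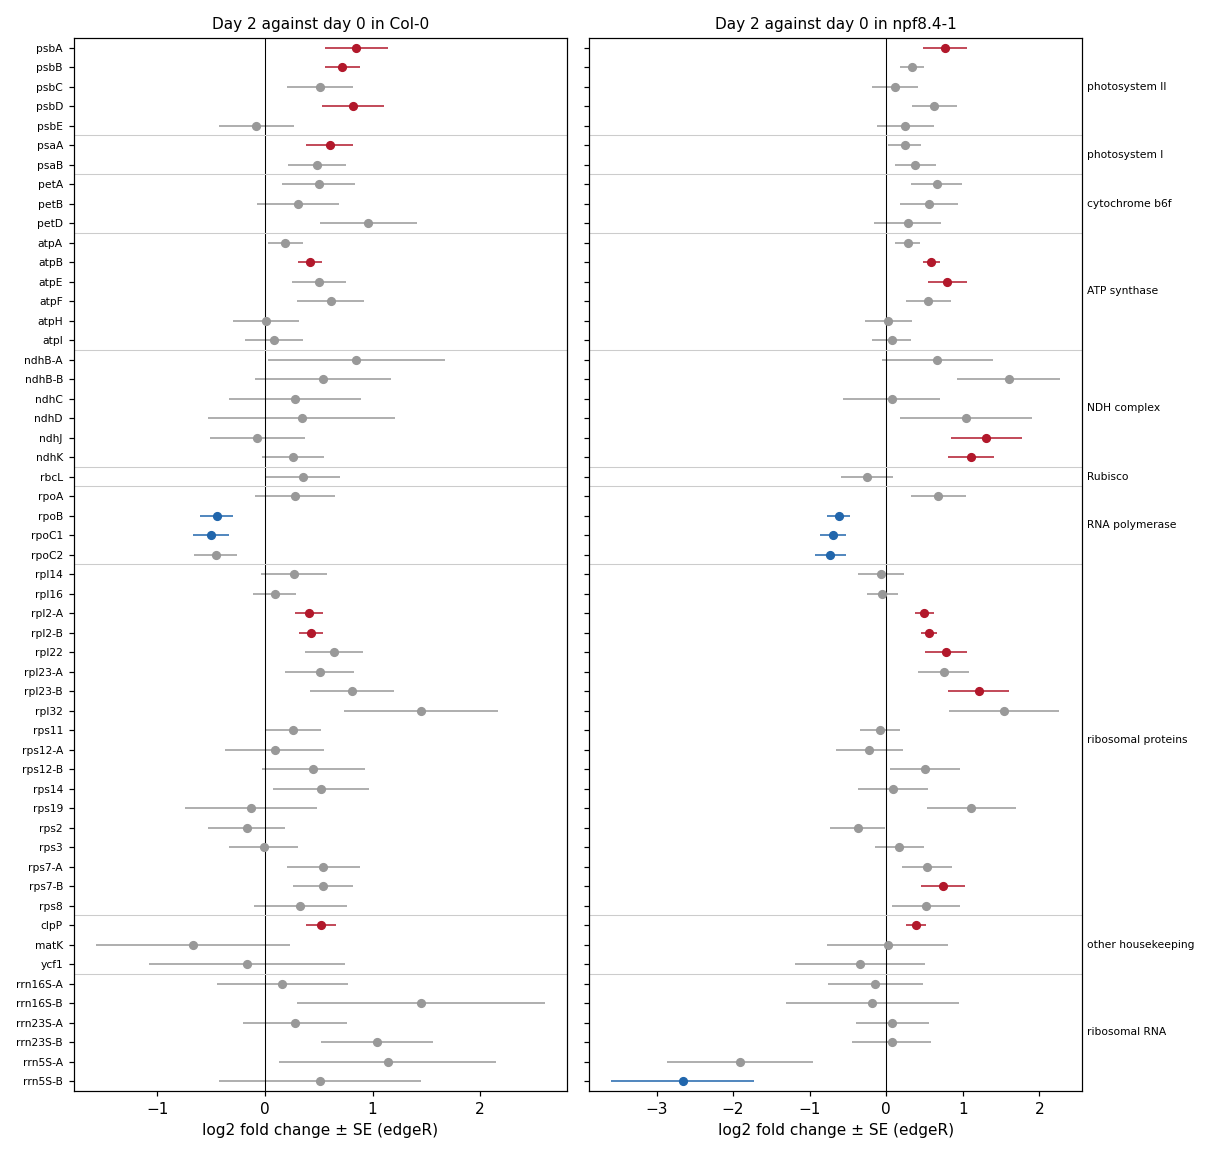
Log2 fold change at day 2 against day 0 (edgeR, bars are SE) for the 54 tested chloroplast genes, grouped by role, in Col-0 (left) and npf8.4-1 (right). Red and blue mark genes called higher and lower at an adjusted p under 0.05; most points lie right of 0, and rpoB, rpoC1 and rpoC2 lie left of it in both panels.

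The photosystem II genes were measured first. The psbA gene lies at chrC:383-1444 on the minus strand. It carries a bacterial-type promoter upstream, the kind the plastid-encoded polymerase reads, and its elements are shown in capitals from chrC:1530-1559 (minus strand, TAIR10.1).
psbA: TTGACAtggctatataagtcatgtTATACT
Its TATACT ends 85 bases before the start codon, and 18 bases separate it from TTGACA. In the 200 bases before the start of each of the 86 protein-coding rows, TTGACA was found on the gene's strand in 8.14% of windows (14% on either strand) and TATACT in 6.98% (12.8%). The pair, in that order with 16 to 19 bases between, was found before psbA only, in 1.16% of windows on the gene's strand and on either strand, which says nothing of how other genes are read.

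The psbA level was 3.79, 2.79 and 2.14 CPM in Col-0 at day 0 and 4.53, 5.77 and 5.41 CPM at day 2. In npf8.4-1 it was 4.19, 5.04 and 2.12 CPM at day 0 and 5.25, 8.09 and 6.09 CPM at day 2. All day 2 libraries lay above all day 0 libraries of the same genotype. The log2 fold change was 0.85 (SE 0.29, edgeR adjusted p = 0.0243) in Col-0 and 0.77 (SE 0.29, edgeR adjusted p = 0.0313) in npf8.4-1. The call rested on several libraries. In Col-0 it was lost without day 0 replicate 2 (0.82, edgeR adjusted p = 0.0679), day 0 replicate 3 (0.67, 0.0942) or day 2 replicate 2 (0.77, 0.0732). In npf8.4-1 it was lost without day 0 replicate 3 (0.51, edgeR adjusted p = 0.0976) or day 2 replicate 2 (0.60, 0.119), and in both genotypes without replicate 3 of both day 2 groups (0.0605 and 0.0544).

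The psbB gene, for the CP47 antenna protein, stood at 3.38, 3.40 and 3.53 CPM in Col-0 at day 0 and 5.11, 5.86 and 6.07 CPM at day 2. In npf8.4-1 its libraries held 5.08, 5.21 and 3.44 CPM at day 0 and 5.74, 6.30 and 5.38 CPM at day 2. The day 2 libraries were above those of day 0 in both genotypes. It rose by 0.72 (SE 0.16, edgeR adjusted p = 0.00182) in Col-0 and stayed past the threshold without any 1 library. In npf8.4-1 its log2 fold change was 0.34 (SE 0.16, edgeR adjusted p = 0.0748). It passed there with library totals alone (0.44, edgeR adjusted p = 0.0302) and without npf8.4-1 day 0 replicate 1 (0.45, 0.0444) or day 0 replicate 2 (0.47, 0.0395). The D2 gene psbD rose by 0.82 (SE 0.29, edgeR adjusted p = 0.0265) in Col-0, where its libraries were 1.20, 1.12 and 1.12 CPM at day 0 and 1.78, 2.22 and 2.08 CPM at day 2, without overlap. That call was lost without Col-0 day 0 replicate 2 (0.81, edgeR adjusted p = 0.0678), day 0 replicate 3 (0.80, 0.0675) or day 2 replicate 2 (0.75, 0.0772), and without replicate 3 of both day 2 groups (0.82, 0.0568). In npf8.4-1 psbD was at 0.63 (edgeR adjusted p = 0.0716) and its libraries overlapped. It passed there with library totals alone (0.73, edgeR adjusted p = 0.0444) and without day 2 replicate 1 (0.91, 0.00774). Of the 5 photosystem II genes, 3 were higher in Col-0 (29.3% of all tested genes were) and 1 in npf8.4-1 (31.5% of all), and none was lower. The CP43 gene psbC, which shares 53 bases with psbD, was at 0.51 and 0.12 in Col-0 and npf8.4-1, and psbE, a cytochrome b559 subunit, at -0.08 and 0.25. Neither gene passed in either genotype.

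The photosystem I reaction centre genes psaA and psaB were the members kept of that complex. In Col-0 psaA held 3.44, 3.49 and 2.35 CPM at day 0 and 3.98, 4.57 and 5.52 CPM at day 2, without overlap. Its increase was 0.60 (SE 0.22, edgeR adjusted p = 0.0345). It no longer passed without Col-0 day 0 replicate 3 (0.43, edgeR adjusted p = 0.14), day 2 replicate 2 (0.61, 0.0633) or day 2 replicate 3 (0.51, 0.0867), or without replicate 3 of both day 2 groups (0.48, 0.119). In npf8.4-1 psaA was at 0.24 with overlapping libraries, and psaB was at 0.48 and 0.38 in Col-0 and npf8.4-1, with no call. With the replicate number as a block in the fit, psaB passed in both genotypes (0.49 and 0.39, edgeR adjusted p = 0.0185 and 0.0464). None of the 3 cytochrome b6f genes passed. Their log2 fold changes were 0.50 and 0.66 for petA (cytochrome f), 0.31 and 0.56 for petB (cytochrome b6) and 0.96 and 0.28 for petD (subunit IV), in Col-0 and npf8.4-1.

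The ATP synthase genes were led by atpB, at chrC:52660-54156 on the minus strand. It overlaps the next gene, atpE, by 4 bases, and the join is shown from chrC:52647-52676 (minus strand, TAIR10.1) with the overlap in capitals.
atpB-atpE: gtaaattgaagaaATGAccttaaatctttg
The capitals hold the start codon of atpE and the stop codon of atpB, so a read across the join belongs to both. In Col-0 atpB stood at 33.7, 28.8 and 29.5 CPM at day 0 and 35.2, 44.5 and 43.1 CPM at day 2. In npf8.4-1 it stood at 35.8, 32.1 and 27.7 CPM at day 0 and 47.0, 48.8 and 48.5 CPM at day 2. No day 2 library overlapped a day 0 library of its genotype. The increase was 0.42 (SE 0.11, edgeR adjusted p = 0.00497) in Col-0 and 0.59 (SE 0.11, edgeR adjusted p = 0.000377) in npf8.4-1, and both stayed past the threshold without any 1 library.

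The atpE libraries of npf8.4-1 held 6.64, 3.56 and 3.34 CPM at day 0 and 7.17, 8.93 and 7.50 CPM at day 2, without overlap. Its increase there was 0.80 (SE 0.25, edgeR adjusted p = 0.0125), and 0.64 (0.0548) without day 0 replicate 3. In Col-0 it was at 0.50 (edgeR adjusted p = 0.101). The other 4 subunit genes did not pass in either genotype. The log2 fold changes of atpF were 0.61 and 0.55 and those of atpA 0.19 and 0.28, while atpH and atpI were at 0.01 to 0.08.

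The NADH dehydrogenase-like (NDH) complex, which drives cyclic electron flow around photosystem I, had 6 genes kept, most with few reads. None passed in Col-0, where 29.3% of all tested genes were higher and 30.7% lower. In npf8.4-1 ndhK and ndhJ, neighbours in 1 gene cluster, were higher (31.5% of all tested genes were). Their neighbour ndhC, with 2 to 12 reads per library, did not pass in either genotype. In npf8.4-1 ndhC was at 0.197 ± 0.142 CPM (SD, n = 3) at day 0 and 0.21 ± 0.0116 at day 2. The ndhK libraries held 0.762, 0.617 and 0.382 CPM at day 0 and 1.21, 1.48 and 1.15 CPM at day 2, without overlap, and its increase was 1.11 (SE 0.30, edgeR adjusted p = 0.00629). The ndhJ libraries held 0.159, 0.685 and 0.382 CPM at day 0 and 1.00, 1.09 and 0.945 CPM at day 2, also without overlap. Its increase was 1.31 (SE 0.46, edgeR adjusted p = 0.0243). The call of ndhJ was lost without day 0 replicate 1 (0.94, edgeR adjusted p = 0.0812), day 0 replicate 3 (1.30, 0.0601) or day 2 replicate 2 (1.28, 0.0549). Rubisco's large subunit gene rbcL did not pass in either genotype, at 0.35 (SE 0.35) in Col-0 and -0.25 (SE 0.34) in npf8.4-1. Its npf8.4-1 libraries at day 0 spread from 7.16 to 18.3 CPM, and without the highest, replicate 2, the value turned to 0.26 (edgeR adjusted p = 0.45). Of its 1440 bases, 573 have a copy at least 97% identical elsewhere in the nuclear or mitochondrial genome.

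The polymerase genes rpoB, rpoC1 and rpoC2 moved the other way, while rpoA did not. The rpoB gene, for the beta subunit, is the first of a stretch on the minus strand that goes on with rpoC1 and rpoC2 (beta' and beta''). In Col-0 rpoB stood at 23.3, 21.8 and 20.4 CPM at day 0 and 14.2, 16.9 and 16.9 CPM at day 2. In npf8.4-1 it stood at 24.2, 23.3 and 24.3 CPM at day 0 and 11.3, 17.9 and 17.4 CPM at day 2. Every day 2 library lay below every day 0 library, across both genotypes. Its log2 fold change was -0.45 (SE 0.15, edgeR adjusted p = 0.0182) in Col-0 and -0.62 (SE 0.15, edgeR adjusted p = 0.00233) in npf8.4-1. In Col-0 the call was lost without day 0 replicate 1 (-0.36, edgeR adjusted p = 0.086) or day 2 replicate 1 (-0.35, 0.0878). In npf8.4-1 it held without any 1 library.

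The level of rpoC1 was 8.79, 7.16 and 7.07 CPM at day 0 and 4.63, 5.80 and 5.89 CPM at day 2 in Col-0. In npf8.4-1 it was 8.58, 7.61 and 7.85 CPM at day 0 and 3.79, 5.22 and 5.88 CPM at day 2, again without overlap. It fell by 0.50 (SE 0.17, edgeR adjusted p = 0.0201) in Col-0 and by 0.69 (SE 0.17, edgeR adjusted p = 0.00264) in npf8.4-1. Without Col-0 day 0 replicate 1 the Col-0 value was -0.35 (edgeR adjusted p = 0.12), and without day 2 replicate 1 it was -0.38 (0.0984). The rpoC2 gene fell by 0.73 (SE 0.20, edgeR adjusted p = 0.00533) in npf8.4-1. In Col-0 its value was -0.46 (SE 0.20, edgeR adjusted p = 0.0563), with all day 2 libraries below those of day 0. It passed there with only the groups compared in the fit (-0.45, edgeR adjusted p = 0.0136) and without npf8.4-1 day 2 replicate 1 (-0.46, 0.00267), a library of the other genotype that shares the fit. With the replicate number as a block rpoC2 also passed in Col-0 (-0.47, edgeR adjusted p = 0.0402). The alpha subunit gene rpoA, which lies in a separate ribosomal protein cluster, did not pass, at 0.28 and 0.68 in Col-0 and npf8.4-1. Its npf8.4-1 value without day 0 replicate 1 was 1.22 (edgeR adjusted p = 0.0104). Copies at least 97% identical over at least 100 bases exist elsewhere in the nuclear or mitochondrial genome for 241 of the 2834 bases of rpoC1 and 186 of the 4131 of rpoC2. None was found for rpoB.

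**Figure D4:**
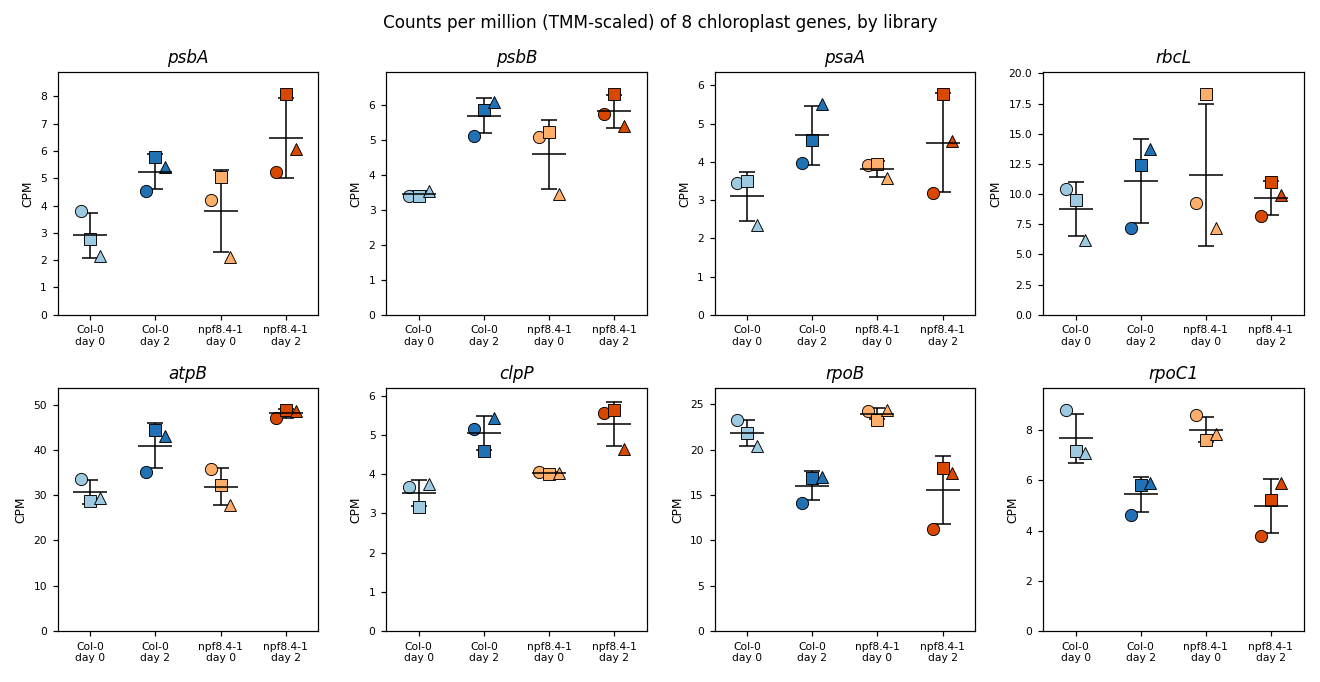
CPM on TMM-scaled library totals for 8 chloroplast genes, one point per library with mean ± SD for each group (circle, square and triangle are replicates 1, 2 and 3). Within each genotype, the day 2 libraries are above those of day 0 for psbA, atpB and clpP, below them for rpoB and rpoC1, and overlap with them for rbcL.

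Downstream of rpoC2 the same strand continues with rps2, atpI, atpH, atpF and atpA. Along this gene order the Col-0 log2 fold changes were -0.45 (rpoB), -0.50 (rpoC1), -0.46 (rpoC2), -0.17 (rps2), 0.08 (atpI), 0.01 (atpH), 0.61 (atpF) and 0.19 (atpA). In npf8.4-1 they were -0.62, -0.69, -0.73, -0.37, 0.07, 0.03, 0.55 and 0.28. The polymerase genes were the lowest in each row, and the values from rps2 to atpA did not pass the threshold in either genotype.

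**Figure D5:**
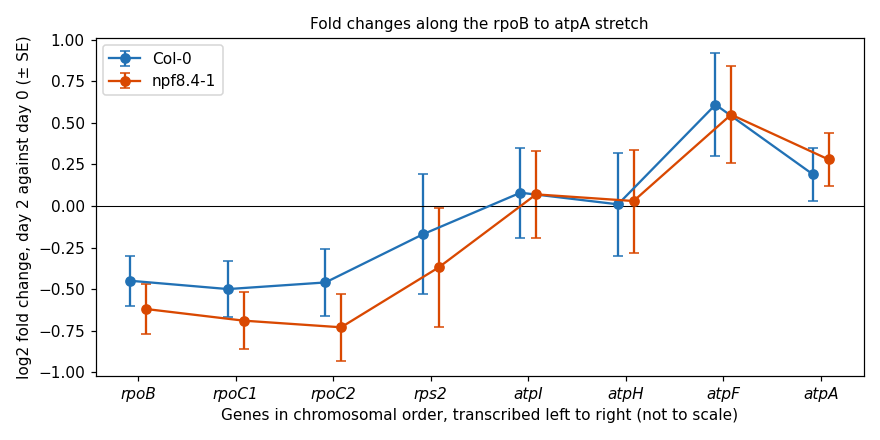
Log2 fold change at day 2 against day 0 (edgeR, bars are SE) for 8 genes in the order in which they lie on the chromosome, from rpoB to atpA, in Col-0 (blue) and npf8.4-1 (orange). Values run from -0.45 and -0.62 at rpoB to 0.19 and 0.28 at atpA.

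The ribosomal protein genes included rpl2. Its identical copies share their reads about evenly, so the values of copy A and copy B are not separate measurements. Copy A stood at 9.32, 9.59 and 8.61 CPM in Col-0 at day 0 and 10.1, 13.2 and 13.2 CPM at day 2. In npf8.4-1 it stood at 8.77, 9.70 and 7.75 CPM at day 0 and 13.5, 12.4 and 11.3 CPM at day 2, without overlap in either genotype. The increase was 0.41 (SE 0.13, edgeR adjusted p = 0.0143) in Col-0 and 0.50 (SE 0.13, edgeR adjusted p = 0.00389) in npf8.4-1, and copy B gave 0.43 and 0.56. In Col-0 copy A no longer passed without day 0 replicate 3 (0.37, edgeR adjusted p = 0.0553) or day 2 replicate 2 (0.34, 0.0608), while copy B still passed. With both copies summed, rpl2 was at 0.42 (SE 0.11, edgeR adjusted p = 0.00411) in Col-0 and 0.53 (SE 0.11, 0.000701) in npf8.4-1. Of 18 ribosomal protein rows tested, 2 were higher in Col-0, both of them rpl2 (29.3% of all tested genes were). In npf8.4-1, 5 were higher, 2 of them rpl2 (31.5% of all). None was lower in either genotype (30.7% and 32.4% of all).

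The 3 others in npf8.4-1 were rpl22 (0.78, SE 0.27), rpl23-B (1.21, SE 0.40) and rps7-B (0.74, SE 0.29), with edgeR adjusted p of 0.0219, 0.0174 and 0.0375. All 3 had few reads and were sensitive to single libraries. Without day 0 replicate 1 the edgeR adjusted p became 0.0588 for rpl22, 0.0539 for rpl23-B and 0.101 for rps7-B. The calls were also lost without day 0 replicate 3 (rpl22 0.0503, rps7-B 0.0747), day 0 replicate 2 (rpl23-B 0.0671), day 2 replicate 1 (rps7-B 0.0786), day 2 replicate 2 (rpl22 0.0778), day 2 replicate 3 (rpl22 0.0695, rps7-B 0.0818) or, for rps7-B, Col-0 day 0 replicate 2 (0.0507). Without replicate 3 of both day 2 groups rpl22 (0.0757) and rps7-B (0.0527) did not pass, nor did rps7-B with no filter on low counts (0.0541) or by DESeq2 (0.0567). The identical copies rpl23-A and rps7-A were at 0.75 and 0.53 and did not pass. With both copies summed, rpl23 was at 1.00 (SE 0.31, edgeR adjusted p = 0.0122) and rps7 at 0.64 (SE 0.26, 0.0482).

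Among other housekeeping genes, clpP, which encodes the proteolytic subunit of the Clp protease, was higher in both genotypes. It stood at 3.67, 3.16 and 3.74 CPM in Col-0 at day 0 and 5.15, 4.60 and 5.45 CPM at day 2. In npf8.4-1 it stood at 4.07, 4.01 and 4.03 CPM at day 0 and 5.56, 5.63 and 4.64 CPM at day 2, without overlap in either genotype. It rose by 0.52 (SE 0.14, edgeR adjusted p = 0.00487) in Col-0 and 0.39 (SE 0.13, edgeR adjusted p = 0.0222) in npf8.4-1. The npf8.4-1 call was lost without day 2 replicate 1 (0.37, edgeR adjusted p = 0.0508) or day 2 replicate 2 (0.36, 0.0581). The protein import component gene ycf1 and the maturase gene matK had 1 library or more under 3 reads and did not pass, with SE of 0.79 to 0.91.

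The rRNA did not move evenly with time. With both copies summed, rrn16S held 207, 174 and 113 CPM in Col-0 at day 0 and 155, 165 and 465 CPM at day 2. In npf8.4-1 it held 114, 311 and 116 CPM at day 0 and 137, 177 and 170 CPM at day 2. The groups overlapped, and the highest library in each genotype was a single one, Col-0 day 2 replicate 3 and npf8.4-1 day 0 replicate 2. The log2 fold change was 0.67 (SE 0.51, edgeR adjusted p = 0.279) in Col-0 and -0.16 (SE 0.50, 0.794) in npf8.4-1, and for rrn23S 0.61 (SE 0.42, 0.234) and 0.07 (SE 0.42, 0.889). The 5S row rrn5S-B was called lower in npf8.4-1 at -2.66 (SE 0.93, edgeR adjusted p = 0.0242) although its libraries overlapped. With the copies summed it did not pass (-2.24, SE 0.93, edgeR adjusted p = 0.0531). The 2 copies together had 12, 117 and 8 reads at day 0 and 10, 14 and 10 at day 2, and without replicate 2 of day 0 the value for copy B was -0.63 (edgeR adjusted p = 0.47). It also lost its call without npf8.4-1 day 2 replicate 1 (-2.32, edgeR adjusted p = 0.0791) or day 2 replicate 3 (-2.50, 0.0666), and without replicate 3 of both day 2 groups (-2.51, 0.0774).

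The make-up of the chloroplast pool was read from each gene's percent of all protein-coding chloroplast reads, which does not depend on the library total. Here rpoB made up 13.6%, 14.1% and 14.9% in Col-0 at day 0 and 8.80%, 8.81% and 8.68% at day 2. In npf8.4-1 it made up 13.8%, 12.8% and 16.5% at day 0 and 6.30%, 8.38% and 8.93% at day 2. The days did not overlap in either genotype. The share of rpoC1 went from 4.97% ± 0.304 (SD, n = 3) to 2.97% ± 0.083 in Col-0 and from 4.79% ± 0.569 to 2.52% ± 0.457 in npf8.4-1. That of rpoC2 went from 4.82% ± 0.449 to 2.95% ± 0.165 and from 5.05% ± 0.587 to 2.56% ± 0.707. The share of atpB went up from 19.9% ± 1.51 to 22.4% ± 0.697 in Col-0 and from 18.9% ± 1.33 to 24.6% ± 1.76 in npf8.4-1. The share of psbA went from 1.86% ± 0.325 to 2.87% ± 0.125 and from 2.20% ± 0.688 to 3.28% ± 0.443. In each genotype 10 of 47 genes had all day 2 shares above day 0 and 4 had all below. Those below were rpoB, rpoC1 and rpoC2 in both, with rps2 in Col-0 and rpl20 in npf8.4-1. The rpl20 row had 4 to 12 reads per library. For npf8.4-1 against Col-0, 1 gene lay all above and 5 all below at day 0, and 3 and 0 at day 2. Shares of 1 total are not independent of each other, and no test was run on them. Both copies of rpl2 in Col-0 and of rps7 in npf8.4-1 are among the rows above. With 3 libraries a side, some rows separate by order alone. These shares were taken for chloroplast rows only, so the counts have no background over all genes and nothing is read from them.

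Between the genotypes no chloroplast gene passed on either day. At day 0, 0 of 54 were called by edgeR, where 0.160% of all tested genes were (0.0309% higher and 0.129% lower). By edgeR 2 chloroplast genes had an unadjusted p under 0.05, beside 1433 of all 19416 genes. DESeq2 called 0 with 3 at that level, beside 225 called and 1563 at that level over all genes. The 2 by edgeR were psbB and ndhK. The psbB value was 0.41 (SE 0.16, edgeR adjusted p = 0.525) with overlapping libraries. That of ndhK was -0.69 (SE 0.31, edgeR adjusted p = 0.661), with all npf8.4-1 libraries below those of Col-0. At day 2, 0 of 54 were called by edgeR, where 1.37% of all genes were (0.412% higher and 0.958% lower). By edgeR 0 chloroplast genes had an unadjusted p under 0.05, beside 2439 of all 19416 genes. DESeq2 called 0 with 0 at that level, beside 771 called and 2491 at that level over all genes. The smallest p at day 2 was that of atpB, at 0.23 (SE 0.11, edgeR adjusted p = 0.4), with all npf8.4-1 libraries above those of Col-0.

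The interaction, which sets the change over time in the mutant against that in Col-0, was not called for any chloroplast gene. By edgeR 0 of 54 passed, with 1 at an unadjusted p under 0.05, and by DESeq2 0 passed with 3 at that level. The percent of all genes called by edgeR was 0.00, with 1715 at an unadjusted p under 0.05, while DESeq2 called 262, with 1845 at that level. The smallest p-values belonged to rrn5S-B (-3.17, SE 1.34, edgeR adjusted p = 0.526), ndhJ (1.38, SE 0.64, 0.566) and rrn5S-A (-3.05, SE 1.40, 0.569), none passing, nor did rrn5S with its copies summed (-3.12, SE 1.32, 0.54). The genes called in 1 genotype alone, such as psbB, psbD and psaA in Col-0 and atpE, ndhJ and ndhK in npf8.4-1, are thus not shown to differ between the genotypes.

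The nuclear genes that serve chloroplast transcription were lower at day 2 in most cases. Both phage-type polymerase genes were lower, SCA3 (the plastid enzyme RPOTp) at -2.01 (SE 0.12, edgeR adjusted p = 7.78e-08) in Col-0 and -2.07 (SE 0.12, 5.18e-08) in npf8.4-1. Its level went from 175 ± 9.85 CPM (SD, n = 3) at day 0 to 43.5 ± 4.15 at day 2 in Col-0 and from 174 ± 10.1 to 41.6 ± 6.88 in npf8.4-1. The other, AT5G15700, whose product serves mitochondria and plastids, was at -1.71 (SE 0.11) and -1.62 (SE 0.11), with edgeR adjusted p of 1.15e-07 and 9.55e-08. All 12 genes for proteins bound to the plastid-encoded polymerase were lower in both genotypes (30.7% and 32.4% of all tested genes were), with medians of -1.64 and -1.82. Among them FLN1, a fructokinase-like protein, was at -2.55 and -2.74, PTAC12 (HEMERA) at -2.41 and -2.57, and PDE312 (PTAC10) at -2.26 and -2.41. The level of PTAC12 went from 317 ± 42.2 to 59.8 ± 8.45 CPM in Col-0 and from 341 ± 48.6 to 57.5 ± 15.3 CPM in npf8.4-1.

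The 6 sigma factors, which direct the plastid-encoded polymerase to promoters, went different ways. SIGE (SIG5), an inducible factor that acts at a psbD promoter, was higher, at 12.5 ± 1.83 CPM (SD, n = 3) at day 0 and 51.6 ± 12.4 CPM at day 2 in Col-0. In npf8.4-1 it was at 12 ± 2.10 and 77.0 ± 12.7 CPM. Its log2 fold change was 2.04 (SE 0.20, edgeR adjusted p = 4.83e-06) in Col-0 and 2.68 (SE 0.20, 5.34e-07) in npf8.4-1. SIGF was lower, at -0.86 and -0.83, and SIG2 at -0.79 and -0.71 (all SE 0.08 to 0.10). In all, 2 were higher and 3 lower in Col-0, and 3 higher and 2 lower in npf8.4-1. Of all tested genes 29.3% were higher and 30.7% lower in Col-0, while the mutant had 31.5% higher and 32.4% lower, and nothing is read from counts of 6 genes. The second increase in Col-0, SIGC at 0.21 (edgeR adjusted p = 0.0238), no longer passed without Col-0 day 0 replicate 2 (0.0905), day 0 replicate 3 (0.10) or day 2 replicate 2 (0.103). Of 6 genes for plastid RNA turnover, 4 were lower and 1 higher in each genotype, where all tested genes were lower in 30.7% and 32.4% of cases and higher in 29.3% and 31.5% (Col-0, then npf8.4-1). RIF10, the polynucleotide phosphorylase that adds and removes tails in plastids, was at -1.39 (SE 0.12, edgeR adjusted p = 1.08e-06) in Col-0 and -1.44 (SE 0.12, 6.26e-07) in npf8.4-1. The gene higher was CSP41A, an RNA-binding protein, at 0.43 and 0.59.

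Nuclear genes for the partners of chloroplast-encoded proteins split by complex. All 31 nuclear genes for plastid ribosomal proteins were lower in both genotypes (30.7% and 32.4% of all tested genes were), with medians of -0.97 in Col-0 and -1.08 in npf8.4-1, where none of the 18 chloroplast ribosomal protein rows was lower. RPL27 was at -1.12 and -1.13 (SE 0.11, edgeR adjusted p = 1.95e-06 and 1.33e-06) and RPL21C at -0.98 and -1.08. Of the 31 nuclear genes for subunits of the photosystems, cytochrome b6f complex, plastocyanin, ATP synthase and Rubisco, 20 were higher and 1 lower in Col-0 (29.3% and 30.7% of all tested genes were), with a median of 0.37. In npf8.4-1, 20 were higher and 3 lower (31.5% and 32.4% of all), with a median of 0.43. The median of all tested genes was 0.02 and 0.01. PSBQ-2, of the oxygen-evolving complex, rose by 0.77 (SE 0.11, edgeR adjusted p = 7.73e-05) and 0.99 (SE 0.11, 8.12e-06) in Col-0 and npf8.4-1, and PSAN, of photosystem I, by 0.56 and 0.81. The Rubisco small subunit gene RBCS1B was lower in both, at -1.19 and -1.11. The Col-0 counts depended on single libraries, with 13 higher without day 0 replicate 2, 12 higher and 2 lower without day 0 replicate 3, and 4 lower without day 2 replicate 3. In npf8.4-1 the count of lower genes was 1 without day 0 replicate 2, day 2 replicate 1 or day 2 replicate 2. Of all 88 nuclear genes in these lists, edgeR called 0 between the genotypes at day 0, 0 at day 2 and 0 in the interaction, with 0, 1 and 1 at an unadjusted p under 0.05, and DESeq2 gave the same counts.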

How the data were processed

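Poly(A) RNA from young leaves was sequenced in 12 libraries, prepared with a stranded mRNA kit per the labels' protocols. The authors deposited 1 table per library, with a count of exon reads, a TPM and an RPKM per gene, per the file headers. Counts were tested, TPM was used to compare levels between genes, and RPKM was not used. Per the submitters' processing notes, bcl2fastq 2.17.1.14 and the build TAIR10 were used. The aligner, the counter, its strand setting and its handling of reads that match several places are each not given in the sources used here, so values of overlapping genes and of repeat copies are uncertain.

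Chloroplast rows were named by coordinates from the RefSeq TAIR10.1 annotation. Of 133 rows, 124 matched at both ends, 5 at one end and 1 through its identical copy, and 3 stayed unnamed. The members, gene lists and rules were chosen with earlier results of these data known.

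edgeR 4.0.16 (R 4.3.3, limma 3.58.1) was fitted to all 12 libraries with 4 group means, TMM scaling, filterByExpr and robust dispersion. P-values were adjusted over 19416 genes with a threshold of 0.05. CPM are counts scaled to 1000000 reads, with library totals adjusted by TMM. SE come from the quasi-likelihood statistic. The alternatives were DESeq2 (1.42.0), its size factors, library totals alone, scaling without organelle rows, 2 other filters on low counts, a fit of the compared groups alone, the replicate number as a block, leaving out libraries in turn, and replicate 3 of both day 2 groups left out. Summing the repeat copies, and TMM-scaled totals for the organelle sums, were added after seeing the data. The fit was tested on simulated data. Copies in other genomes were sought with BLAST+ 2.17.0 at 97% identity over 100 bases.

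Genes were named by rule. The rule takes 11 genes that are always given where kept, then, per comparison, the 3 largest increases and decreases past the threshold and up to 3 per role with the smallest p. It adds the 5 highest and 5 lowest by TPM, for the interaction the 3 smallest p where none passes, and up to 4 genes per nuclear list. No 2 libraries agreed within sampling noise (mean chi-square per gene of 12.6 or more).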

Additional observations from a re-analysis of the deposited data

How the results depend on the processing

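Few reads per gene limit these results, since all protein-coding chloroplast rows together held 4250 to 7677 reads in a library, and the log2 fold changes of ycf1 and matK had SE of 0.79 to 0.91. Leaving out 1 library at a time, the chloroplast genes higher at day 2 numbered 4 to 12 in Col-0 and 6 to 13 in npf8.4-1, and those lower 0 to 3 and 3 to 5. Under the other settings they numbered 6 to 10 and 10 to 15, and 2 to 3 and 3 to 4. No chloroplast gene was called between genotypes or in the interaction under any setting run.

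With single libraries left out, the nuclear subunit genes numbered 12 to 22 higher and 1 to 4 lower in Col-0 and 1 to 3 lower in npf8.4-1, and the sigma factors 1 to 3 higher in Col-0. Without replicate 3 of both day 2 groups, 13 subunit genes were higher and 4 lower in Col-0. With library totals alone, 3 were lower in Col-0 and 2 RNA turnover genes were higher in npf8.4-1. With only the groups compared, 1 sigma factor was higher in Col-0. The causes were not tested. The counts for phage-type polymerases, polymerase-associated proteins and plastid ribosomal proteins (2, 12 and 31 lower) did not move in any setting.

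Some uncalled values turned sign with 1 library left out, and their ranges were -1.06 to 0.57 for ycf1 in Col-0, -1.0 to 1.07 for ycf1, -0.48 to 0.26 for rbcL and -0.04 to 0.56 for psbC in npf8.4-1. Scaling by library totals alone moved the median of all genes to 0.071 for Col-0 and 0.101 for npf8.4-1.

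In no comparison did every same-numbered pair of libraries correlate above 0.1 in its deviations from the group means, so the main fit did not pair them. The correlations ran from -0.07 to 0.18 for depletion in Col-0, -0.17 to 0.24 in npf8.4-1, -0.05 to 0.14 between genotypes at day 0 and -0.1 to 0.42 at day 2, and 6 of these 12 were above 0.1. Over all pairs of groups, same-numbered libraries ran from 0.07 to 0.36 for replicate 1, -0.17 to 0.02 for replicate 2 and 0.06 to 0.42 for replicate 3. Replicate 1 against replicate 3 ran from -0.44 to -0.08. Replicates 1 and 3 thus shared some deviations by number, and the source was not tested. With the number as a replicate block, 10 chloroplast genes were higher and 3 lower in Col-0, against 14 higher and 4 lower in npf8.4-1, and 2 nuclear subunit genes were lower in Col-0. With the block psaB passed in both genotypes (0.49 and 0.39, edgeR adjusted p = 0.0185 and 0.0464), as did rpoC2 in Col-0 (-0.47, 0.0402).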

Other observations

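Rows of the mitochondrial genome, 152 in all, were read in the same way. They took 0.00260% to 0.00351% of reads in Col-0 at day 0 and 0.00402% to 0.00608% at day 2. In npf8.4-1 they took 0.00267% to 0.00406% at day 0 and 0.00441% to 0.00476% at day 2. On these unscaled totals the days did not overlap in either genotype. With TMM-scaled totals they overlapped in npf8.4-1, where day 0 replicate 2 held 0.00442% and day 2 replicate 2 0.0042%, and no test was run on these sums. As with the chloroplast share, the highest library was Col-0 day 2 replicate 3.

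The small rRNA rows rrn4.5S and rrn5S were high together in 1 library. In npf8.4-1 day 0 replicate 2 the copies of rrn4.5S had 90 reads and those of rrn5S 117. In the other 11 libraries they had 4 to 19 and 8 to 37 reads. This library also had the highest rrn16S of its group.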
